A study of Mus musculus and Bos taurus with 6 samples.

Results

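The miRNA of striated muscle, miR-1, miR-133a, miR-133b and miR-206, were followed through 6 small RNA libraries of the lactating mammary gland, as a view of how much muscle RNA these samples held. The members were every line of the deposited lists whose name without the arm was miR-1, miR-1a, miR-133a, miR-133b or miR-206, with or without a copy number. This rule found 7 of the 1750 lines of the mouse list and 4 of the 1539 lines of the bovine list. The mouse lines were mmu-miR-1a-3p, mmu-miR-1a-1-5p, mmu-miR-1a-2-5p, mmu-miR-133a-3p, mmu-miR-133a-5p, mmu-miR-133b-3p and mmu-miR-206-3p. The bovine lines were bta-miR-1 and bta-miR-133a, each on the 3p arm, bta-miR-206 on the 3p arm, and the 5p arm of miR-133a, which carried the mouse name. No bovine line of miR-133b was found by the rule.

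Total RNA came from the whole abdominal gland of primiparous FVB/N mice at lactation day 12, without its lymph node (2 libraries), and from udder biopsies of multiparous Holstein cows at mid-lactation on a low-forage diet (2 libraries, each a pool of 2 cows). A further 2 libraries held small RNA that was co-precipitated from the same kind of mouse gland with a monoclonal antibody against AGO2, an Argonaute protein of the RNA-induced silencing complex (AGO2-RISC), to which mature miRNA are bound. The study names 2 mice, with left and right glands taken, and 2 animals for the AGO2 libraries. The sources used here do not say whether a total RNA and an AGO2 library came from the same mouse. All animals were lactating, and none of the libraries analysed here was of muscle tissue or of a mock precipitate. Mouse and AGO2 RNA were isolated with the RNA NOW kit and bovine RNA with the Nucleospin miRNA kit, so that species, kit and pooling cannot be told apart. The libraries summed to 8391916 to 9299807 counts in mouse, 3909166 to 5041406 in AGO2 and 9402483 to 10613807 in bovine. Levels are given as reads per 1000000 counts of this sum (RPM). A count of 0 allowed up to 3 counts, or 0.283 to 0.357 RPM with total RNA and 0.595 to 0.767 RPM with AGO2. As no molecular identifiers were used, these limits and the intervals given with the ratios and shares cover nothing but the counting error. The AGO2 libraries differed in their rare miRNA. AGO2 sample 1 had counts in 839 lines, of which 73 had 1 to 9 counts, whereas AGO2 sample 2 had counts in 1080 lines, of which 490 had 1 to 9. The study also marks AGO2 sample 2 for its many low-count reads, which it says miRDeep2 later discarded. The mouse samples had counts in 773 to 858 lines, of which 307 to 368 had 1 to 9.

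In mammals, miR-1 and miR-133a are transcribed together in skeletal and cardiac muscle, where miR-1 is known to favour differentiation and miR-133a to favour growth of myoblasts. miR-206 and miR-133b form a similar pair that is known mainly from skeletal muscle. The mammary gland is built mainly of epithelium during lactation, and a miRNA binds its targets through its seed, the nucleotides next to its 5′ end. In the GENCODE annotation of GRCm38, Mir206 lies at chr1:20679010-20679082 and Mir133b at chr1:20682769-20682887. Both are inside the long non-coding RNA gene Gm28653 on the + strand, with 3686 bases between them. Mir1a-1 lies at chr2:180389048-180389124 and Mir133a-2 at chr2:180398379-180398482, on the + strand with 9254 bases between them and no annotated gene around either. The 3p arms of mouse miR-1a and miR-133a are also encoded by a second copy, so that their reads cannot be assigned to a single gene.

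The sequences below are shown because the 4 miRNA form 2 seed groups, and because similar sequences can share reads. They are RefSeq mature sequences of GRCm38.p6, which matched 3 of the 7 mouse lines, at chr1:20679055-20679076, chr1:20682834-20682855 and chr2:180389057-180389079 on the + strand. Capitals mark the seed, nucleotides 2 to 8.
mmu-miR-206-3p: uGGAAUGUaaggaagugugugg
mmu-miR-133b-3p: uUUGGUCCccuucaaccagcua
mmu-miR-1a-1-5p: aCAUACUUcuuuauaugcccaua
In the deposited sequences, mmu-miR-1a-3p had the seed of mmu-miR-206-3p, and the pair differed at 4 of 22 positions, the first of them at position 11. mmu-miR-133a-3p had the seed of mmu-miR-133b-3p and differed from it at 1 position, the last one. Small RNA were poly(A)-tailed for the libraries, poly-A stretches were removed from the reads, and miR-133b-3p ends in A. The last nucleotide of miR-133b-3p thus cannot be told apart from the tail. Reads that lack this nucleotide fit both miRNA, and how such reads were assigned is not given in the sources used here. The split between miR-133a and miR-133b is therefore uncertain, and the counts of either are counts as assigned. The bovine 3p sequences of miR-1, miR-133a and miR-206 were identical to the mouse ones. GC content was 27.3% in miR-1a-3p, 45.5% in miR-206-3p, 50.0% in miR-133b-3p and 54.5% in miR-133a-3p.

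In total RNA the muscle miRNA were a small part of the miRNome, and nearly all of their reads were miR-1. Mouse sample 1 held 1482 counts of mmu-miR-1a-3p (159 RPM) and mouse sample 2 held 1739 counts (207 RPM), a mean of 183 ± 33.8 RPM (SD, n = 2). Bovine sample 1 held 6706 counts of miR-1-3p (713 RPM) and bovine sample 2 held 8156 (768 RPM), a mean of 741 ± 39.0 RPM (SD, n = 2). In the order of all lines by level, miR-1-3p took rank 149 and 123 in the mouse samples and rank 100 and 87 in the bovine samples. Both bovine samples thus lay above both mouse samples. In bulk tissue, fewer cells of a type and less RNA per cell cannot be told apart.
miR-133a-3p, which shares the transcripts of miR-1, was far rarer. Mouse samples 1 and 2 held 31 and 47 counts of it (3.33 and 5.60 RPM), and bovine samples 1 and 2 held 110 and 138 counts (11.7 and 13.0 RPM). The groups did not overlap for this miRNA either. Separation of 2 libraries from 2 is no test, here, for miR-1-3p above or for other miRNA below. How many of all miRNA separated in this way was not counted. Differences between the species were common, since edgeR's test, given below, found 28% of 150 matched miRNA higher in bovine and 31.3% lower.
miR-206-3p was near the limit of detection. Mouse sample 1 held 7 counts (0.753 RPM) and mouse sample 2 held 0, whereas bovine samples 1 and 2 held 17 and 7 counts (1.81 and 0.660 RPM). The ranges of the species overlapped. mmu-miR-133b-3p had 0 counts in both mouse samples.
The 5p arms, which are the less abundant strands of these precursors, were near 0 as well. miR-133a-5p had 1 and 4 counts in mouse samples 1 and 2 and 10 and 6 counts in bovine samples 1 and 2. miR-1a-1-5p had 0 and 1 counts and miR-1a-2-5p had 0 counts in both mouse samples.

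**Figure D1:**
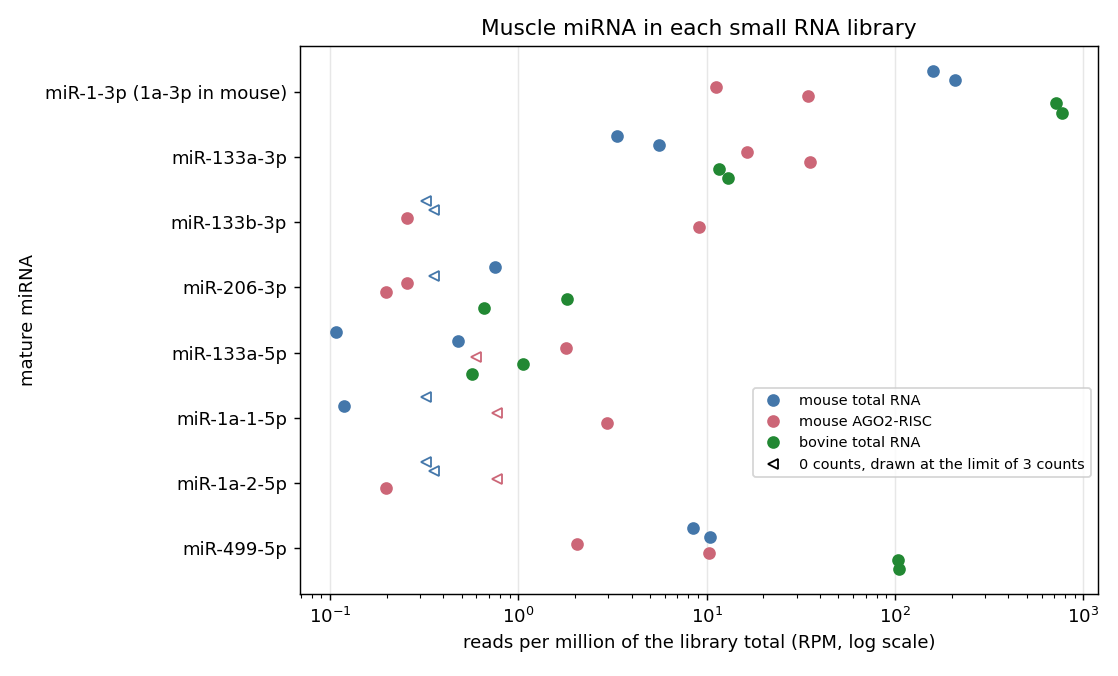
Level of the muscle miRNA and of miR-499-5p in each of the 6 libraries, in RPM on a log scale, with 1 point per library and open triangles where the count was 0. miR-1-3p was at 159 and 207 RPM in mouse total RNA, 11.3 and 34.7 RPM in AGO2-RISC and 713 and 768 RPM in bovine, whereas the AGO2 libraries held the highest levels of miR-133a-3p.

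The AGO2 libraries addressed which miRNA of the mouse gland are loaded in AGO2-RISC. mmu-miR-1a-3p was lower there than in total RNA, whereas mmu-miR-133a-3p lay higher in both AGO2 libraries but did not pass the test. AGO2 sample 1 held 44 counts of mmu-miR-1a-3p (11.3 RPM) and AGO2 sample 2 held 34.7 RPM, a mean of 23.0 ± 16.6 RPM (SD, n = 2). Both lay below both mouse samples, but they were 3.08-fold apart, against 1.30-fold in the mouse samples. With edgeR's quasi-likelihood test over the 299 miRNA that passed the count minimum of the study's methods in at least 1 of the 4 libraries, miR-1a-3p fell by 2.82 on the log2 scale (SE 0.74, Benjamini-Hochberg adjusted p = 0.00670). It passed the minimum through the mouse libraries only. Of all miRNA tested, 12.4% were called lower and 15.4% higher in AGO2-RISC at an adjusted p under 0.05. The call was lost without mouse sample 2 (edgeR adjusted p = 0.0793) and without AGO2 sample 1 (log2 fold change -1.87, edgeR adjusted p = 0.122), and the adjusted p ranged from 9.08e-05 to 0.122 over the alternatives that changed 1 choice at a time. With the minimum of 10 counts in sum, described with the rarer members, miR-1a-3p was called with all libraries (log2 fold change -2.88, edgeR adjusted p = 0.00306). That call was lost without mouse sample 1 (log2 fold change -2.96), mouse sample 2 (-2.81) or AGO2 sample 1 (-2.41). It was kept without AGO2 sample 2 (-4.03).

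mmu-miR-133a-3p had 64 counts in AGO2 sample 1 (16.4 RPM) and 178 in AGO2 sample 2 (35.3 RPM), a mean of 25.8 ± 13.4 RPM (SD, n = 2). Both values were above the 3.33 and 5.60 RPM of the mouse samples. Its log2 fold change was 2.69 (SE 1.44), which did not pass the test (edgeR's quasi-likelihood test, adjusted p = 0.152). DESeq2 gave 2.79 with an adjusted p of 0.0608. Without AGO2 sample 1 the log2 fold change of miR-133a-3p was 3.50, and without AGO2 sample 2 it was 1.96. With the minimum of 10 counts in sum, these values were 2.97 and 1.86. Whether miR-133a-3p passed thus depended on the library left out and on the minimum. Over the alternatives with all libraries, its adjusted p (edgeR or DESeq2) ranged from 0.0608 to 0.514. It was tested only because AGO2 sample 2 was just over the count minimum, which AGO2 sample 2 just missed for miR-1a-3p.

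The other members stayed under this minimum. Of these, miR-133b-3p, miR-133a-5p and miR-1a-1-5p reached 10 counts in sum over the 4 libraries and were read from a second edgeR fit with that minimum, in which 6.51% of 1168 miRNA were called in either direction. None of the 3 was called. The median log2 fold change of all miRNA in this fit was 3.67, against -0.12 in the first fit, and it was 0 without AGO2 sample 1 and 0.66 without AGO2 sample 2, so that no direction was read from it for the rare members. AGO2 sample 2 held 46 counts of mmu-miR-133b-3p (9.12 RPM), and AGO2 sample 1 held 1 count. Set against the higher 3-count limit of the mouse samples, the level in AGO2 sample 2 alone was at least 25.5-fold higher, which leaves out the counting error of the 46 counts and the uncertain split from miR-133a. The second fit gave miR-133b-3p an adjusted p of 0.438 (edgeR), and 3.78e-07 without AGO2 sample 1, over a range of alternatives up to 0.761. Among the 3p counts of miR-133a and miR-133b together, miR-133b made up 46 of 224 in AGO2 sample 2 (20.5%, exact 95% interval 15.4 to 26.4%) and 1 of 65 in AGO2 sample 1 (1.54%, 0.0389 to 8.28%). It made up 0 of 78 in the mouse samples together (exact 95% interval up to 4.62%). The reads assigned to miR-133b in AGO2-RISC thus came almost entirely from 1 library, and these shares carry the uncertain split from miR-133a.
miR-1a-1-5p behaved likewise, with 0 counts in AGO2 sample 1 and 15 counts (2.98 RPM) in AGO2 sample 2. It was not called (edgeR adjusted p = 0.512), but passed without AGO2 sample 1 (edgeR adjusted p = 0.00998, range of the alternatives 0.00998 to 0.887). miR-133a-5p showed the opposite split, with 7 counts in AGO2 sample 1 and 0 in AGO2 sample 2 (edgeR adjusted p = 0.802). miR-206-3p had 1 count in each AGO2 sample, and miR-1a-2-5p had 0 and 1, so that neither could be compared at this depth.

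The ratio of miR-1-3p to miR-133a-3p counts within a library does not depend on how the library is scaled. It was 47.8 in mouse sample 1 (exact 95% interval 33.5 to 70.6) and 37.0 in mouse sample 2 (27.7 to 50.6). In bovine samples 1 and 2 it was 61.0 (50.5 to 74.3) and 59.1 (49.9 to 70.4). In AGO2 samples 1 and 2 it was 0.688 (0.457 to 1.03) and 0.983 (0.793 to 1.22). The total RNA of both species thus held far more reads of miR-1-3p than of miR-133a-3p, whereas in AGO2-RISC both intervals included a ratio of 1. The mean ratio was 42.4 ± 7.64 in mouse and 0.835 ± 0.209 in AGO2 (SD, n = 2 each), which is 50.8-fold apart. It was 60.0 ± 1.32 in bovine (SD, n = 2), 1.42-fold above mouse. With 2 libraries a group an exact permutation test cannot reach p = 0.05, so no p is given. A ratio of reads is not a ratio of molecules, since sequences differ in how well they are captured in a library. The same pair of sequences was read in every library, but whether their capture differed between the kinds of library was not tested.
Over both arms, miR-1 made up 97.2 to 97.4% of the reads of the 4 miRNA in mouse, 98.0 to 98.2% in bovine and 37.6 to 45.9% in AGO2. miR-133a made up 2.10 to 2.85%, 1.73 to 1.75% and 42.8 to 60.7%, in the same order.

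**Figure D2:**
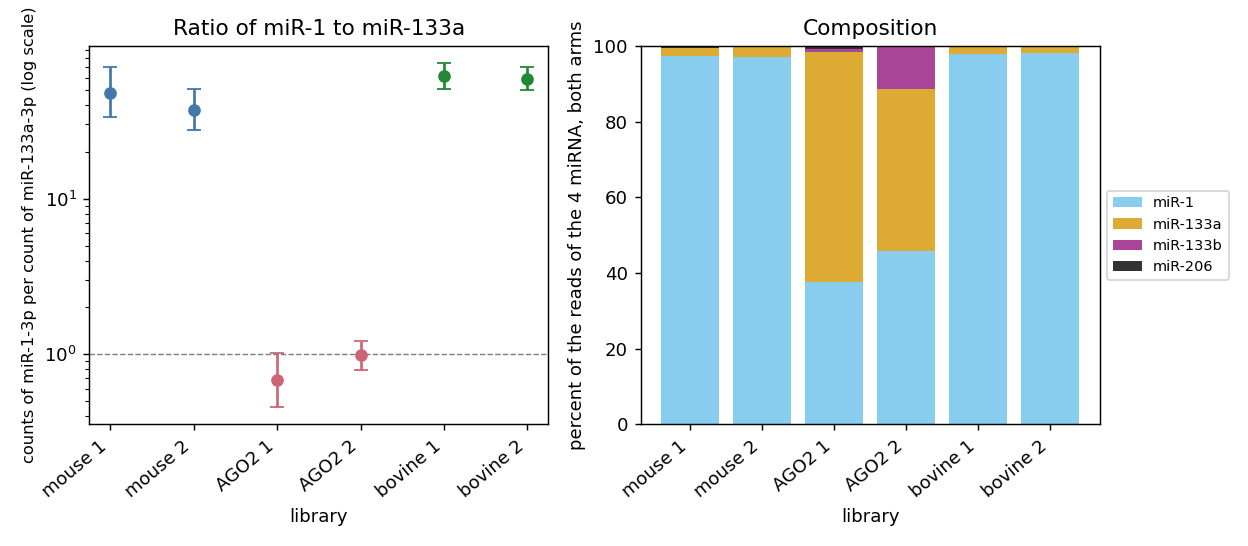
Counts of miR-1-3p per count of miR-133a-3p in each library on a log scale (left, points with exact 95% intervals, dashed line at a ratio of 1) and the percentage of the reads of the 4 miRNA that belonged to each, both arms (right). The 4 total RNA libraries had ratios of 37.0 to 61.0, and the AGO2 libraries had 0.688 and 0.983.

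The difference in GC content was set beside these values, since miR-1a-3p and miR-133a-3p differ in it. Over the 299 miRNA tested in AGO2 against mouse, the log2 fold change had a Spearman rho of 0.02 with GC content, across miRNA, which are not independent replicates. The 9 miRNA with up to 30% GC, as in miR-1a-3p, had a median log2 fold change of 0.48, and the 117 with 50% or more had a median of 0.03. With a GC trend taken out of each library, the log2 fold change of miR-1a-3p was -3.38 and that of miR-133a-3p was 2.69. The same correction with the minimum of 10 counts in sum moved miR-1a-3p the other way, from -2.88 to -2.13, where it was no longer called (edgeR adjusted p = 0.0562). The effect of the correction on miR-1a-3p thus differed between the minimums, and the cause was not tested.

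The bovine libraries addressed how far the miRNome is conserved between the species. miR-1-3p was higher in bovine than in mouse. In RPM, which scale by library totals alone, the sum of the 4 miRNA was 4.01-fold higher, at 755 ± 38.8 RPM against 188 ± 35.3 RPM (SD, n = 2 each). Single libraries held sums of 164 and 213 RPM (mouse), 728 and 783 RPM (bovine) and 29.9 and 82.5 RPM (AGO2). The test covered the 150 miRNA that were matched between species and reached 100 RPM in any of the 4 total RNA libraries. miR-1-3p had a log2 fold change of 1.50 (SE 0.38, edgeR's quasi-likelihood test, adjusted p = 0.0168). It reached this minimum in all 4 libraries. Of all miRNA tested, 28% were called higher in bovine, so that a call in this direction is common. The call was lost without bovine sample 1 (edgeR adjusted p = 0.150) and without bovine sample 2 (edgeR adjusted p = 0.214), with log2 fold changes of 1.60 and 1.40 and a range of the adjusted p from 1.96e-07 to 0.214 over the alternatives that changed 1 choice at a time.
Scaling mattered for the size of this difference. miR-1-3p was 2.84-fold higher in bovine with the TMM scaling of the test, and 4.07-fold higher with library totals alone (log2 fold change 2.02). With library totals alone, the median log2 fold change of all miRNA tested moved from -0.02 to 0.50 and the calls moved from 42 higher and 47 lower to 50 higher and 36 lower. Relative to that median, miR-1-3p lay 1.52 higher, a distance that scaling leaves nearly unchanged by construction.

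miR-133a-3p and miR-206-3p were under this minimum and were read from the second fit with at least 10 counts in sum, in which 26.9% of 242 miRNA were called higher. miR-133a-3p had a log2 fold change of 0.82 (SE 0.62) and was not called (edgeR adjusted p = 0.258). It passed without mouse sample 2 (log2 fold change 1.25, edgeR adjusted p = 0.0276, range of the alternatives 0.0276 to 0.721). miR-206-3p had a log2 fold change of 0.98 (SE 1.29) and was not called (edgeR adjusted p = 0.521). Without mouse sample 2, where it had 0 counts, its log2 fold change was 0.04. Without mouse sample 1 the remaining mouse library was at 0. A difference of miR-206 was therefore not detectable at this depth. Both comparisons use the same mouse libraries.

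**Figure D3:**
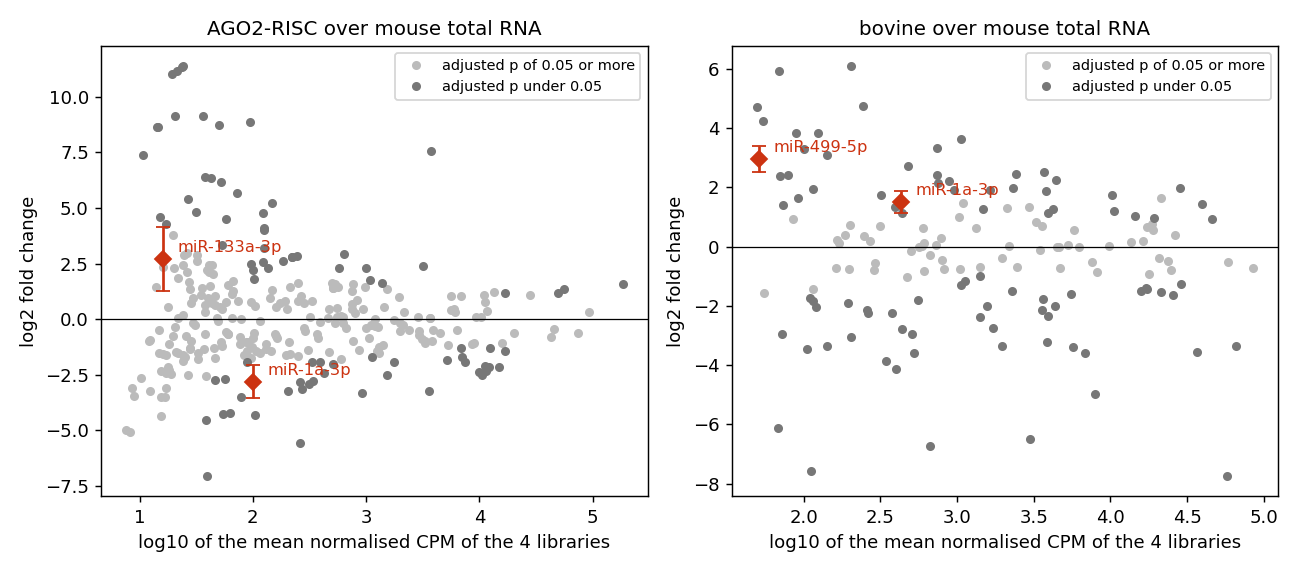
Log2 fold change of all miRNA tested against the log10 of their mean normalised CPM, for AGO2-RISC over mouse total RNA (left, 299 miRNA) and bovine over mouse total RNA (right, 150 matched miRNA), with darker points at an adjusted p under 0.05 and red diamonds with SE for the muscle miRNA tested. miR-1a-3p lay at -2.82 on the left and 1.50 on the right, and miR-133a-3p at 2.69 on the left with the wider error.

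Other miRNA known from striated muscle were examined next. miR-499-5p, which is encoded within a myosin gene of heart and slow muscle, had 79 and 87 counts in the mouse samples (8.49 and 10.4 RPM). It had 8 and 52 counts in the AGO2 samples (2.05 and 10.3 RPM), and 974 and 1121 counts (104 and 106 RPM) in bovine. Both bovine values were above both mouse values. In bovine against mouse it had a log2 fold change of 2.96 (SE 0.44, edgeR's quasi-likelihood test, adjusted p = 0.00266), and it passed the minimum through the bovine libraries only. Without bovine sample 2 its log2 fold change was 2.90 and its edgeR adjusted p was just over 0.05, against 9.70e-20 upwards in the other alternatives. In the fit with 10 counts in sum it was called without that library (edgeR adjusted p = 0.0232). In AGO2-RISC the ranges of miR-499-5p overlapped those of total RNA.
miR-208a-3p and miR-208b-3p, which are likewise encoded in myosin genes and are known from heart and slow muscle, had 1 and 2 counts and 4 and 1 counts in the mouse samples and 0 counts of miR-208b in both bovine samples. Over the whole list of striated muscle miRNA, 7 of 11 mouse lines had a count in each mouse sample, 6 and 10 in the AGO2 samples, and 5 of 6 bovine lines in each bovine sample. The summed level of the list was 173 to 224 RPM in mouse, 32.0 to 95.4 RPM in AGO2 and 831 to 888 RPM in bovine. Of the 2 lines tested in AGO2-RISC, miR-1a-3p was called lower, as were 12.4% of all miRNA. Both lines tested in bovine, miR-1-3p and miR-499-5p, were called higher, as were 28% of all miRNA, but miR-499-5p had entered only through the libraries where it was high, and miR-133a-3p and miR-206-3p were not called in the second fit.
Each list of miRNA known from other cells of the gland summed to more than the striated muscle list in every library. The gap was smallest to the erythroid list in bovine sample 2. The erythroid list includes miR-486, which is also known in muscle. In bovine sample 2, bta-miR-486-5p held 230 RPM, and the erythroid and striated muscle lists summed to 1102 and 888 RPM. The order of these 2 lists there thus depended on miR-486. miR-143 and miR-145, known from smooth muscle and other contractile or stromal cells, summed to 51856 to 66279 RPM in mouse, 31395 to 32723 RPM in AGO2 and 56989.6 to 71833 RPM in bovine, so that the species overlapped. Of the 2 lines tested in bovine against mouse, miR-145a-5p was called higher. The miRNA of luminal epithelium, the miR-200 family, summed to 159842 to 188842 RPM in mouse, 337865 to 367922 RPM in AGO2 and 73979 to 75620.1 RPM in bovine. The members did not move together. In AGO2-RISC the sum was carried by miR-200a-3p and miR-141-3p, which were called higher, whereas miR-200b-3p and miR-200c-3p were called lower, and the median log2 fold change of the 8 lines tested was -0.59 against -0.12 for all miRNA. These 2 of 8 in each direction stand beside 15.4% higher and 12.4% lower of all miRNA. In bovine, 4 of 5 tested were called lower, against 31.3% of all miRNA, while miR-200c-3p had 24588 and 30029.5 RPM against 17888 and 5127 RPM in mouse and was not called.
miR-205, known from basal epithelium, summed to 628 to 917 RPM in mouse and 4108 to 4437 RPM in bovine, and miR-126 of endothelium to 24193 to 34264 RPM in mouse and 55972 to 62356 RPM in bovine. The erythroid miRNA summed to 6523 to 13372 RPM in mouse and 1102 to 1716 RPM in bovine, and those of leukocytes to 1265 to 2125 RPM and 2554 to 3285 RPM. In AGO2 these 4 lists summed to 718 to 942 RPM, 28818 to 29280 RPM, 15557 to 32505 RPM and 2351 to 2973 RPM, in the same order. In bovine, the line of miR-205 that was tested was called higher, none of 2 lines of miR-126 was called, 2 of 3 erythroid lines were called lower, and 2 of 5 leukocyte lines were called in each direction, against 28% higher and 31.3% lower over all miRNA. In AGO2-RISC, 1 of 2 lines of miR-126 was called in each direction, 1 of 4 erythroid lines was called higher, and no line of miR-205, of the 3 of miR-143 and miR-145 or of the 5 of leukocytes was called, against 15.4% higher and 12.4% lower over all miRNA. All of these values are shares of the same library totals, and the part of other cell types in the differences of miR-1 was not tested.

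**Figure D4:**
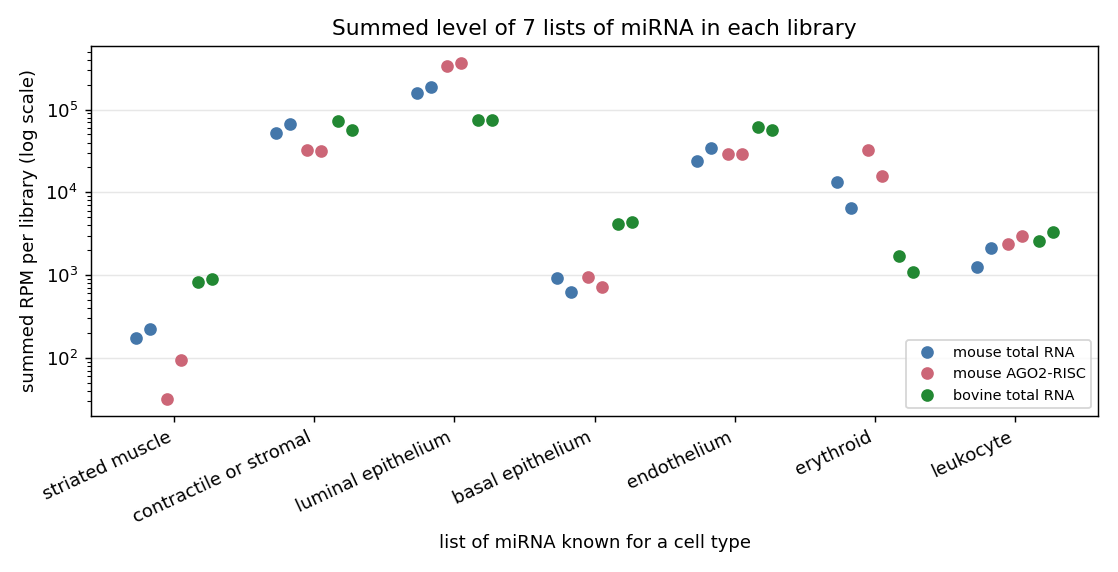
Summed level of 7 lists of miRNA in each library, in RPM on a log scale, with 1 point per library. The striated muscle list was at 173 and 224 RPM in mouse, 32.0 and 95.4 RPM in AGO2 and 831 and 888 RPM in bovine, below the other 6 lists in each library. The erythroid list includes miR-486, which is also known in muscle, and its place above the striated muscle list in bovine sample 2 depended on miR-486.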

How the data were processed

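Small RNA libraries were sequenced on an Illumina instrument. Per the labels and methods, the authors trimmed poly-A ends, selected reads between 17 and 28 nt, and ran the miRDeep2 quantifier with miRBase 20 (builds GRCm38 and UMD3.1). The deposited files give unnormalised counts, 1 line per mature miRNA once redundant lines were taken out by the authors. A deposited column of normalised values was this count times 1 constant per library and was not used, nor were the lists of predicted precursors. The members, the lists of cell type miRNA and the alternatives were chosen with earlier results of these data known.

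RPM were computed over the sum of each library, and arms missing in a name were taken from the deposited position. Tests used edgeR 4.0.16 under R 4.3.3 (TMM, quasi-likelihood F test, Benjamini-Hochberg adjustment over all miRNA tested, adjusted p under 0.05). The SE is the log2 fold change divided by the square root of F. AGO2 was tested against mouse over miRNA above 175 counts in at least 1 library (the minimum of the study's methods), and bovine against mouse over miRNA at 100 RPM or more in at least 1 library. The species were matched by a supplementary list of the study, from which 247 pairs of the same arm were used. Members under these minimums were read from fits with at least 10 counts in sum. With 2 libraries a group, p-values rest on the spread between these libraries. Alternatives were DESeq2 1.42.0, DESeq2 size factors within edgeR, scaling by totals alone, other minimums, other matching, a GC trend taken out, RPM over known miRNA, normalised CPM, a single arm or both, each library left out, and, added after the data were seen, the study's sample number as a block. The fits were also run on counts simulated with edgeR's dispersion trend. This simulation did not model the unevenness of the AGO2 libraries, and no result here rests on it. Intervals are exact (Clopper-Pearson). The named miRNA were all members, miR-1b, miR-208, miR-499, the lists, and the 5 miRNA closest in pattern to miR-1-3p and miR-133a-3p. Tables and figures were made in Python 3.11.15 (NumPy 2.4.6, pandas 2.3.3, matplotlib 3.10.9, SciPy 1.17.1).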

Additional observations from a re-analysis of the deposited data

Results flagged for a closer look

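A predicted bovine miRNA on the list, which none of the comparisons used, had the seed of miR-133a-5p (nucleotides 2 to 8). It had 5 counts in bovine sample 1, above the 3 counts that a count of 0 allows, and 2 counts in bovine sample 2. Whether it is a copy of miR-133a was not tested.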

How the results depend on the processing

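Of 181 recomputed values, 156 counted as kept. They kept their direction and their side of the threshold, or stayed within the spread of the 2 libraries or within 1.5 times the count. Without 1 of 2 libraries, a sum or ratio stays within that spread by construction. A member that was not called counted as kept whenever it was again not called with the same sign, whatever its log2 fold change. The 156 are therefore no measure of how stable the results are. Where a value was not kept, the cause was not tested, other than that fewer libraries or another number of miRNA entered the fit. In AGO2 against mouse, the 46 higher calls became 29 with no minimum. Leaving out 1 library gave 28 to 65 higher and 22 to 41 lower calls. It gave a log2 fold change of -3.93 to -1.87 for miR-1a-3p, 1.96 to 3.50 for miR-133a-3p, -2.11 to 6.30 for miR-1a-1-5p and -4.22 to 2.58 for miR-133a-5p, which turned in sign without the single AGO2 library that held their reads. In bovine against mouse, the minimum of 10 counts in sum gave 65 higher and 74 lower calls, and no minimum gave 76 lower calls. Leaving out 1 library gave 19 to 64 higher and 24 to 61 lower calls, and a log2 fold change of 1.40 to 1.76 for miR-1-3p and 0.63 to 1.25 for miR-133a-3p. With 1 choice changed at a time, the calls of miR-1 were lost without mouse sample 2 or AGO2 sample 1 in the first comparison and without either bovine sample in the second. With 10 counts in sum as the minimum, the first call was also lost without mouse sample 1, mouse sample 2 or AGO2 sample 1 and, with all libraries, with a GC trend taken out (log2 fold change -2.13, edgeR adjusted p = 0.0562). With both arms, the mean bovine ratio of miR-1 to miR-133a was 56.3. The labels give no shared replicate numbers, but the study numbers its mouse and AGO2 samples 1 and 2, and whether a number marks 1 mouse is not stated. With this number as a replicate block, added after the data were seen, 60 miRNA were called higher and 61 lower, miR-1a-3p had a log2 fold change of -3.03 (edgeR adjusted p = 0.00497) and miR-133a-3p 2.63 (edgeR adjusted p = 0.191), and no call of a member changed. The differences of sample 1 over sample 2 in mouse and AGO2 had a correlation of 0.22 over the 299 miRNA tested and -0.10 over 1168. The bovine libraries have no pairing with mouse. miR-133b, miR-206 and the 5p arms had 46 counts or fewer in every library, and the reads assigned to miR-133b came almost entirely from AGO2 sample 2.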

Other observations

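miR-1b-3p, listed for mouse only, was followed as the neighbour of miR-1a in name. Its deposited sequence did not have the seed of miR-1a-3p. It had 35 and 61 counts in the mouse samples (3.76 and 7.27 RPM) and 0 and 4 counts in the AGO2 samples. Both AGO2 libraries thus lay below both mouse libraries, but at counts near the limit, so that no direction was read. miR-1b-3p was not called (edgeR's quasi-likelihood test with at least 10 counts in sum, adjusted p = 0.736).

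The miRNA with the pattern closest to that of miR-1-3p were taken from the 193 matched miRNA with a mean of at least 10 RPM, by the Euclidean distance of log2(RPM + 1) over the 6 libraries, each centred on its own mean. They were miR-98-5p (distance 1.51), miR-196a-5p (1.54), miR-193a-5p (1.59), miR-185-5p (1.70) and miR-30b-3p (1.77), against a median distance of 4.99. miR-193a-5p, for example, held 127 and 82.1 RPM in mouse, 5.63 and 22.4 RPM in AGO2 and 1145 and 795 RPM in bovine. The miRNA closest to miR-133a-3p were miR-32-5p (distance 0.59), miR-339-5p (1.20), miR-142-5p (1.20), miR-29c-3p (1.33) and miR-381-3p (1.37), against a median of 4.08. miR-32-5p held 29.2 and 66.1 RPM in mouse, 145.3 and 273.7 RPM in AGO2 and 143.4 and 115.6 RPM in bovine. None of the 5 miRNA closest to miR-1-3p was among the 5 closest to miR-133a-3p. Sets of 5 out of 193 seldom share a member, so nothing was read from this. These distances are a description over 6 libraries in 3 groups.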
